A study of Homo sapiens with 12 samples.

Results

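The classical histone deacetylases HDAC1 to HDAC10 were examined in lung squamous cell carcinoma (LUSC) cell lines that overexpressed maspin, the serpin encoded by SERPINB5. The members were chosen by symbol, and all 10 of 10 were found among the 38434 named genes of both deposited count tables. RNA selected for poly(A) had been sequenced from 2 established human LUSC lines, LK-2 and RERF-LC-AI, in 12 libraries, 3 in each of 4 groups. LK2-maspin cells carried a lentiviral vector for maspin and the green fluorescent protein ZsGreen (Maspin-P2A-ZsGreen), and LK2-ctrl cells carried the same type of vector with ZsGreen alone, both kept in RPMI1640. LC-AI-maspin and LC-AI-ctrl cells were made from RERF-LC-AI in the same way and kept in Eagle's minimum essential medium. Each group was a pool of surviving blasticidin-resistant clones, so that maspin levels of single cells are averaged. Maspin cannot be told apart here from other differences between the pools. A maspin effect below means the difference between the maspin pool and the ctrl pool of a line. The sources used here do not say whether the 3 libraries of a group came from separate cultures, and p-values therefore measure only the spread between these libraries, which may be technical.

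Histone deacetylases remove acetyl groups from lysines of histones and other proteins, and histone deacetylation is commonly tied to compact chromatin and lower transcription. Class I enzymes are mostly nuclear: HDAC1 and HDAC2 are the catalytic subunits of the SIN3, NuRD, CoREST and MiDAC complexes, HDAC3 is that of the NCoR and SMRT complex, and HDAC8 acts on the cohesin subunit SMC3. Class IIa enzymes (HDAC4, HDAC5, HDAC7 and HDAC9) have weak catalytic activity of their own, bind MEF2 transcription factors and leave the nucleus when kinases such as CaMK, PKD or SIK phosphorylate them. Class IIb holds HDAC6, a mainly cytoplasmic deacetylase of tubulin, and HDAC10, a polyamine deacetylase. Nuclear maspin has been described as an inhibitor of HDAC1 activity, which is a property of the protein, whereas the present data measure mRNA.

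The members lie on 9 chromosomes (coordinates of GENCODE v44, GRCh38). The class I genes are HDAC1 at chr1:32292083-32333635 (+ strand), HDAC2 at chr6:113933028-114011308 (- strand), HDAC3 at chr5:141620876-141636849 (- strand) and HDAC8 at chrX:72329516-72573101 (- strand). The class IIa genes are HDAC4 at chr2:239048168-239401654 (- strand), HDAC5 at chr17:44076746-44123702 (- strand), HDAC7 at chr12:47782722-47833132 (- strand) and HDAC9 at chr7:18086949-19002416 (+ strand). The class IIb genes are HDAC6 at chrX:48801377-48824982 (+ strand) and HDAC10 at chr22:50245183-50251405 (- strand). Exons of HDAC5 overlap G6PC3 and exons of HDAC7 overlap SLC48A1 on the opposite strand, and exons of HDAC10 overlap MAPK12 on the same strand. The libraries are described as strand-specific, but the sources used here do not say whether the counting used strand, so the counts of HDAC5, HDAC7 and HDAC10 may include reads of these neighbours. The same holds for HDAC8, whose exons overlap an unnamed annotated gene on the same strand, and for HDAC3 and HDAC4, which each overlap an unnamed gene on the opposite strand.

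HDAC1 and HDAC2 encode closely related enzymes that take part in the same complexes, and their longest exact match is shown because the results below separate the 2 genes. Over the MANE Select transcripts, the longest run of bases that HDAC1 shared with HDAC2 was 17 bases, here in capitals with 20 bases on each side. The stretch is coding in both transcripts and spans an exon junction (chr1:32316747-32324499, + strand, and chr6:113956673-113958684, - strand), and 8 of the flanking bases differ.
HDAC1: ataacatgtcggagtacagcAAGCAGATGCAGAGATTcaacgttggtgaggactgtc
HDAC2: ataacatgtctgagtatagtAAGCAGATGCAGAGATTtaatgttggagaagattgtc
The longest run between any 2 members was 30 bases (HDAC4 with HDAC5, and HDAC5 with HDAC7). The pseudogene HDAC1P2 shared 58 bases with HDAC1, but only 0.435% of the 50-base windows of HDAC1 occurred in it.

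Promoter windows are shown for HDAC1 and HDAC9, which passed the test with maspin in RERF-LC-AI cells, and for HDAC4, which differed most between the lines. They come from RefSeq (GRCh38.p14), 250 bases before to 50 bases after an annotated start. The table held 19 windows for 9 of the 10 members and none for HDAC5, and some windows of HDAC6 and of HDAC9 overlap. Capitals mark GC boxes (GGGCGG), the motif of SP1-type factors, CCAAT boxes (CCAAT), the motif of NF-Y, and the MEF2 site, all searched on both strands.
HDAC1, chr1:32291833-32292132, + strand: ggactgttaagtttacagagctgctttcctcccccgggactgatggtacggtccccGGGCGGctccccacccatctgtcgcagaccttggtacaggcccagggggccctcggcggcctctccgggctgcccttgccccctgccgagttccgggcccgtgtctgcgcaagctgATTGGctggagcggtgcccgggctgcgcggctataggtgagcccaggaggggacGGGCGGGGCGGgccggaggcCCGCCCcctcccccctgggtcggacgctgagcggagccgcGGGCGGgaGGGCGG
HDAC4, chr2:239401600-239401899, - strand: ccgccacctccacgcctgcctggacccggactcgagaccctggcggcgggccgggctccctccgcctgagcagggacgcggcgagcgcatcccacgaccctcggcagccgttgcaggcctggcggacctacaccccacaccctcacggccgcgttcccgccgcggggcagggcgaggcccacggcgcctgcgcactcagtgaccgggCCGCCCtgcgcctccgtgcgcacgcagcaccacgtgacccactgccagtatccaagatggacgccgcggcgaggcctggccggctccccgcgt
HDAC9, upstream start, chr7:18086575-18086874, + strand: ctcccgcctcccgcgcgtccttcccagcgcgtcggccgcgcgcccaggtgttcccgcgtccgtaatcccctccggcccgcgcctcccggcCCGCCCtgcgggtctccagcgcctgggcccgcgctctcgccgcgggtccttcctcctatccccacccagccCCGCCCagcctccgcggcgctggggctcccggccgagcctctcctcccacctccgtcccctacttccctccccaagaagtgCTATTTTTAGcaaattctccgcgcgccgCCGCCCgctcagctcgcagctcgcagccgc
HDAC9, MANE Select start, chr7:18495499-18495798, + strand: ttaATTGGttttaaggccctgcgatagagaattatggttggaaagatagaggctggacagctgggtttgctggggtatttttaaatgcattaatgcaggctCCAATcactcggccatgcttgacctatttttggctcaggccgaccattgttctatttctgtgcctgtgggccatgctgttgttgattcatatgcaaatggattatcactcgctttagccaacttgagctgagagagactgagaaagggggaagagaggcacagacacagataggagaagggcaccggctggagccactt
The HDAC1 window held 6 GC boxes, of which 2 overlap, and 1 CCAAT box, at a GC content of 73.7%. Of 5 HDAC4 windows, the one shown is the nearest to the MANE Select start, 629 bases from it, and held 1 GC box (76.3% GC), while the other 4 held none of the motifs. The upstream HDAC9 window held 3 GC boxes and 1 MEF2 site (75.0% GC), whereas the window at the MANE Select start held 2 CCAAT boxes and no GC box (47.3% GC). Over the 19 windows, 8 held a GC box, 7 a CCAAT box, 1 a MEF2 site and 0 a TATA box (TATAAA). Among all 35116 promoter windows of the table, 44.95% held a GC box, 34.6% a CCAAT box, 2.99% a MEF2 site and 11.5% a TATA box. A match is a description of the letters and not a bound site.

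Total counts over named genes were 39802246 to 65454432 per library, and TMM factors, which scale libraries to a common level, ran from 0.973 to 1.03. SERPINB5 had 50.9, 50.7 and 48.4 CPM (counts scaled by library total and TMM factor, within each line) in LK2-maspin libraries, against 2.02, 2.01 and 1.87 CPM in LK2-ctrl libraries. It had 513, 480 and 438 CPM in LC-AI-maspin libraries, against 0.271, 0.143 and 0.201 CPM (8 to 14 counts) in LC-AI-ctrl libraries, so that every library matched its label. The summed level of 7 squamous markers was 422 to 484 CPM in LK2-maspin and 530 to 572 CPM in LK2-ctrl libraries, nearly all of it SOX2 (428 ± 35.5 CPM in LK2-maspin and 537 ± 23.1 CPM in LK2-ctrl cells, SD, n = 3 each). The keratin genes KRT5 and KRT6A went the other way, at 7.44 ± 1.74 and 2.66 ± 0.398 CPM in LK2-maspin and 0.780 ± 0.198 and 1.35 ± 0.362 CPM in LK2-ctrl cells, and KRT14 was at 0 in LK2-maspin and at 0 to 0.0739 CPM in LK2-ctrl libraries. Of the other markers, TP63 averaged only 1.14 CPM in LK2-maspin and 1.27 CPM in LK2-ctrl cells. PKP1 averaged 0.349 and 0.342 CPM, and DSG3 7.55 and 5.07 CPM, in the same order. Apart from SOX2, the squamous markers were thus low in LK-2 cells too. The part of these markers in the results below was not tested. In RERF-LC-AI cells the sum was 10.3 to 10.97 CPM with maspin and 10.5 to 11.6 CPM in ctrl libraries, and 2 of 7 markers (DSG3 and PKP1) reached 1 CPM on average, so that the squamous label has little support in these genes. The summed level of 4 leukocyte, endothelial and fibroblast markers was 8.94 to 10.2 CPM in LC-AI-maspin and 7.70 to 8.82 CPM in LC-AI-ctrl libraries, and its part in the results below was not tested.

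HDAC1 was the most abundant HDAC transcript per length in all 4 groups, and the members below it differed between the lines. CPM values were divided by the length of the MANE Select transcript, on the assumption that this isoform is the one transcribed. The first rank of HDAC1 rests on this division, by 2.118 kb for HDAC1 and 9.737 kb for HDAC2. In plain CPM HDAC2 stood above HDAC1 in all 4 groups. Mean CPM of HDAC2 and HDAC1 were 406 and 138 in LK2-maspin, 410 and 142 in LK2-ctrl, 256 and 139 in LC-AI-maspin and 267 and 154 in LC-AI-ctrl cells. HDAC1 averaged 65.3 ± 3.36 CPM per kb in LK2-maspin and 67.0 ± 1.47 CPM per kb in LK2-ctrl cells (SD, n = 3 each). It averaged 65.7 ± 2.20 CPM per kb in LC-AI-maspin and 72.8 ± 1.23 CPM per kb in LC-AI-ctrl cells. In LK-2 cells HDAC2, HDAC3 and HDAC4 followed, at 41.7, 37.2 and 32.5 CPM per kb with maspin and 42.1, 37.8 and 31.6 CPM per kb in ctrl cells, each above the next without overlap of its libraries. HDAC8, HDAC7, HDAC6, HDAC5 and HDAC10 lay between 8.69 and 12.03 CPM per kb in LK2-maspin and between 8.49 and 11.7 CPM per kb in LK2-ctrl cells, with most neighbours overlapping. HDAC9 came last in LK-2 cells, at 2.42 and 2.32 CPM per kb.

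In RERF-LC-AI cells the order after HDAC1 was HDAC3 (30.0 CPM per kb with maspin and 31.2 in ctrl cells), HDAC2 (26.3 and 27.4), HDAC8 (23.5 and 24.3), HDAC7 (21.0 and 23.0), HDAC6 (17.4 and 18.2) and HDAC10 (10.3 and 9.71). HDAC4, HDAC5 and HDAC9 closed the order at 2.28 to 2.94 CPM per kb in LC-AI-maspin and 2.29 to 2.56 CPM per kb in LC-AI-ctrl cells. In LC-AI-ctrl cells the libraries of these 3 genes overlapped, whereas in LC-AI-maspin cells HDAC9 stood above HDAC5 and HDAC4 without overlap.

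**Figure D1:**
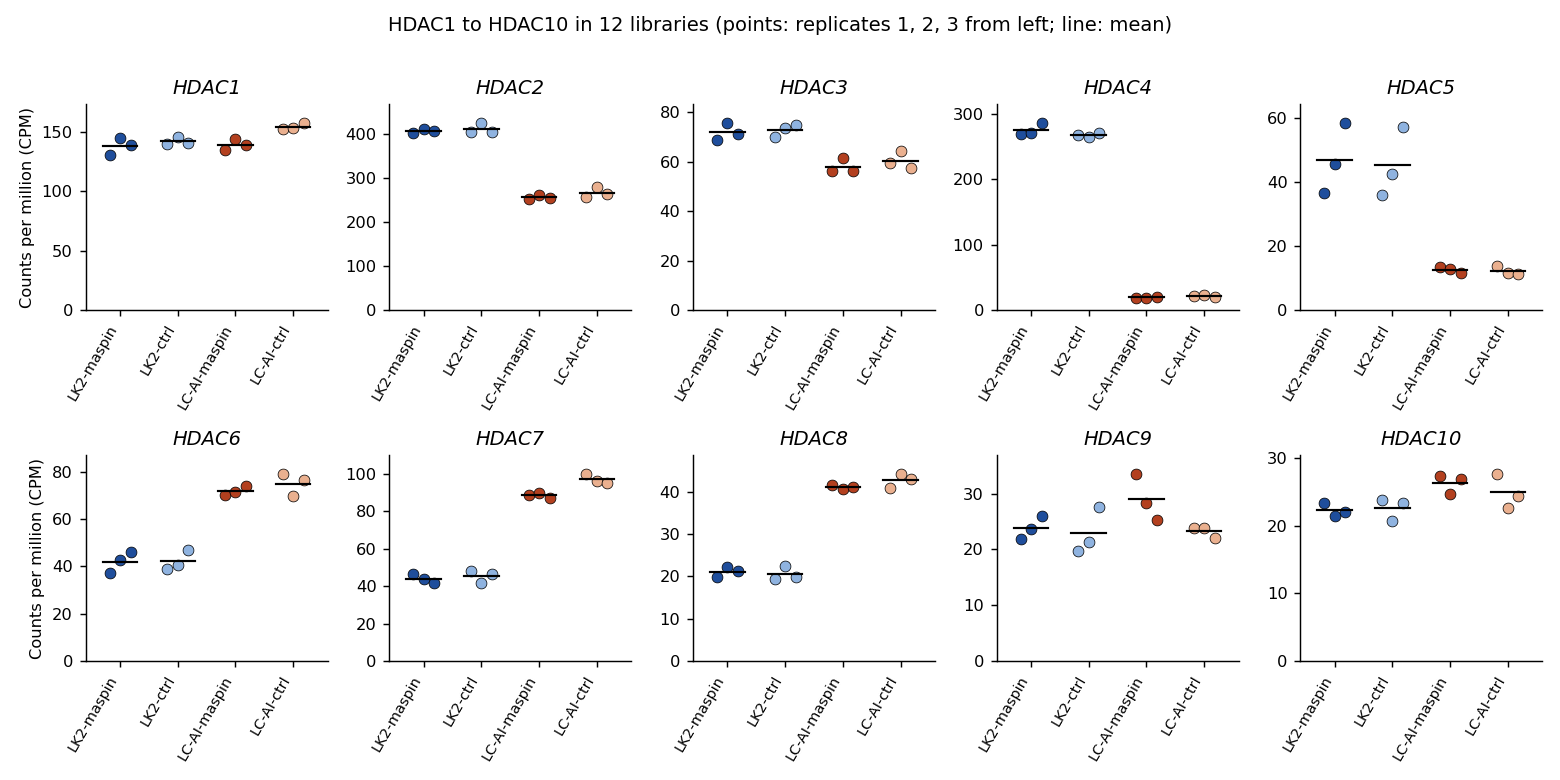
CPM, scaled within each line, of each HDAC gene in the 12 libraries (y axis, linear from 0) by group (x axis). Points are replicates 1 to 3 from left to right and lines are group means. HDAC4 and HDAC5 sit far higher in LK-2 than in RERF-LC-AI libraries, HDAC6, HDAC7 and HDAC8 sit higher in RERF-LC-AI libraries, and within each line maspin and ctrl libraries lie close together.

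To examine whether HDAC mRNA differed with maspin in LK-2 cells, LK2-maspin was compared with LK2-ctrl. None of the 10 HDAC genes was a differentially expressed gene (DEG): 0 of 10 had an adjusted p under 0.05 in edgeR's quasi-likelihood test, and 0 had an unadjusted p under 0.05. Over all 26270 genes tested, 0.533% were DEGs (140 genes). DESeq2 and all other alternatives also gave 0 HDAC DEGs. The members' log2 fold changes ran from −0.05 to 0.06, with 6 below and 4 above 0 and a median of −0.01, beside a median of −0.001 over all genes.

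HDAC1, the deacetylase that nuclear maspin is described to inhibit, had 131, 145 and 139 CPM in LK2-maspin libraries, against 140, 146 and 140 CPM in LK2-ctrl libraries. The groups overlapped, and the log2 fold change of HDAC1 was −0.04 (SE 0.06, 95% confidence interval −0.17 to 0.09). HDAC2 had 402, 410 and 406 CPM in LK2-maspin libraries, against 404, 424 and 403 CPM in LK2-ctrl libraries. The groups overlapped for each of the 10 genes, beside 11.9% of all genes without overlap. HDAC3 averaged 71.9 ± 3.50 CPM with maspin and 73.0 ± 2.54 CPM in ctrl cells, and HDAC8 21.1 ± 1.202 CPM with maspin and 20.5 ± 1.69 CPM in ctrl cells (SD, n = 3 each).

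Among class IIa genes, HDAC4 had 268, 270 and 286 CPM in LK2-maspin libraries, against 268, 264 and 270 CPM in LK2-ctrl libraries. HDAC5 varied most among the libraries, with 36.4, 45.6 and 58.3 CPM in LK2-maspin replicates 1, 2 and 3, against 35.9, 42.4 and 57.2 CPM in LK2-ctrl replicates 1, 2 and 3. Libraries with the same number lay close together for HDAC5, and its 95% confidence interval was the widest of the 10 (−0.33 to 0.44 on the log2 scale, that is from 20.7% lower to 35.2% higher). HDAC7 averaged 43.9 ± 2.44 CPM with maspin and 45.6 ± 3.30 CPM in ctrl cells, and HDAC9 23.9 ± 2.10 CPM with maspin and 22.9 ± 4.17 CPM in ctrl cells. Of class IIb, HDAC6 averaged 42.0 ± 4.42 CPM with maspin and 42.1 ± 4.09 CPM in ctrl cells, and HDAC10 22.3 ± 0.991 CPM with maspin and 22.6 ± 1.71 CPM in ctrl cells. The intervals of class I genes covered changes from 11.1% lower to 17.4% higher, and those of class IIb from 13.5% lower to 14.9% higher.

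**Figure D2:**
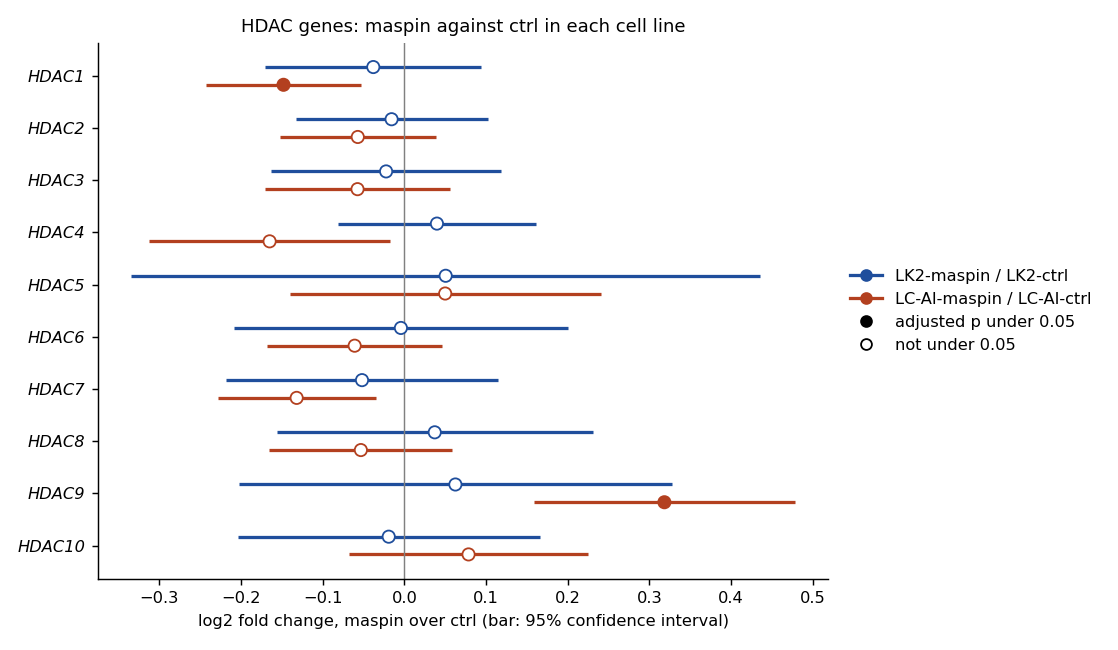
Log2 fold changes of the 10 HDAC genes, maspin over ctrl (x axis), in both lines. Points are edgeR estimates, bars are 95% confidence intervals and filled points have an adjusted p under 0.05. The filled points are HDAC1 (−0.15) and HDAC9 (0.32) in RERF-LC-AI cells, and all LK-2 intervals cover 0.

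In RERF-LC-AI cells, HDAC1 mRNA was slightly lower and HDAC9 mRNA was higher with maspin. These were the HDAC DEGs of this line, 2 of 10 members, beside 10.5% DEGs among all 25197 genes tested (2655 genes, of which 4.01% of the genes tested were higher and 6.53% lower). A further 2 members, HDAC7 and HDAC4, had an unadjusted p under 0.05 only. The members' log2 fold changes had a median of −0.06, beside 0.01 over all genes, with 7 below and 3 above 0. Libraries of the groups did not overlap for 3 of 10 members, beside 25.1% of all genes. In bulk RNA, fewer cells expressing a gene and less RNA per cell cannot be told apart.

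HDAC1 had 135, 144 and 139 CPM in LC-AI-maspin libraries, against 152, 153 and 157 CPM in LC-AI-ctrl libraries. Every maspin library lay below every ctrl library. The log2 fold change of HDAC1 was −0.15 (SE 0.05, 95% confidence interval −0.24 to −0.05, adjusted p = 0.0372 in edgeR's quasi-likelihood test), and HDAC1 fell by 9.75% in CPM terms. This call was close to the threshold: the adjusted p of HDAC1 ran from 0.00177 to 0.198 over 16 alternatives and was under 0.05 in 7 of them, with the direction the same in 16 of 16. It was 0.0548, 0.0608 and 0.196 without LC-AI-ctrl replicate 1, 2 and 3, and 0.152 and 0.164 without LC-AI-maspin replicate 1 and 3.

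HDAC9, a class IIa corepressor of MEF2, had 33.5, 28.4 and 25.3 CPM in LC-AI-maspin libraries, against 23.8, 23.9 and 22.0 CPM in LC-AI-ctrl libraries. Every maspin library lay above every ctrl library, and LC-AI-maspin replicate 1 was the highest. The log2 fold change of HDAC9 was 0.32 (SE 0.08, 95% confidence interval 0.16 to 0.48, adjusted p = 0.00597 in edgeR's quasi-likelihood test), that is 1.25-fold. The adjusted p of HDAC9 was under 0.05 in 13 of 16 alternatives (range 0.000125 to 0.128). Without LC-AI-maspin replicate 1 the log2 fold change of HDAC9 was 0.21 (adjusted p = 0.0957), and without LC-AI-ctrl replicate 3 it was 0.28 (adjusted p = 0.0539).

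HDAC7 had 88.5, 89.7 and 87.1 CPM in LC-AI-maspin libraries, against 99.8, 96.1 and 94.8 CPM in LC-AI-ctrl libraries. The groups of HDAC7 did not overlap, yet its log2 fold change of −0.13 (SE 0.05) did not pass the test (adjusted p = 0.0774, under 0.05 in 3 of 16 alternatives, range 0.0102 to 0.337). HDAC4 had 18.8, 19.1 and 19.95 CPM in LC-AI-maspin libraries, against 21.7, 23.3 and 19.9 CPM in LC-AI-ctrl libraries. LC-AI-ctrl replicate 3 lay within the HDAC4 range of the maspin libraries, and its log2 fold change of −0.16 (SE 0.07) did not pass (adjusted p = 0.171).

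The other 6 members had log2 fold changes from −0.06 to 0.08 in RERF-LC-AI cells, with adjusted p-values from 0.551 to 0.838, and their groups overlapped. HDAC2, the partner of HDAC1 in its complexes, had 253, 261 and 255 CPM in LC-AI-maspin libraries, against 256, 280 and 263 CPM in LC-AI-ctrl libraries. HDAC3 averaged 58.0 ± 2.94 CPM with maspin and 60.4 ± 3.67 CPM in ctrl cells, and HDAC8 41.2 ± 0.521 CPM with maspin and 42.7 ± 1.70 CPM in ctrl cells (SD, n = 3 each). HDAC5 averaged 12.6 ± 0.998 CPM with maspin and 12.2 ± 1.48 CPM in ctrl cells. The tubulin deacetylase HDAC6 averaged 71.8 ± 1.90 CPM with maspin and 74.9 ± 4.82 CPM in ctrl cells, and HDAC10 26.3 ± 1.45 CPM with maspin and 24.9 ± 2.51 CPM in ctrl cells.

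In RERF-LC-AI cells the sums over class I and over class IIa were lower with maspin, without overlap of the libraries, whereas in LK-2 cells they overlapped. Class I transcripts summed to 156 ± 6.27 CPM per kb in LK2-maspin and 159 ± 4.27 CPM per kb in LK2-ctrl cells, and to 146 ± 3.76 CPM per kb in LC-AI-maspin and 156 ± 3.75 CPM per kb in LC-AI-ctrl cells (SD, n = 3 each). Class IIa transcripts summed to 54.1 ± 2.79 CPM per kb in LK2-maspin and 53.2 ± 2.89 CPM per kb in LK2-ctrl cells, and to 28.6 ± 0.727 CPM per kb in LC-AI-maspin and 30.2 ± 1.04 CPM per kb in LC-AI-ctrl cells. Single libraries ran from 143 to 150 CPM per kb of class I in LC-AI-maspin and from 152 to 160 in LC-AI-ctrl cells, and from 27.8 to 29.17 CPM per kb of class IIa in LC-AI-maspin and from 29.19 to 31.3 in LC-AI-ctrl cells, so that the class IIa groups all but touched. Class IIb transcripts summed to 18.9 ± 0.788 CPM per kb in LK2-maspin and 19.04 ± 1.32 CPM per kb in LK2-ctrl cells, and to 27.7 ± 0.744 CPM per kb in LC-AI-maspin and 27.9 ± 2.10 CPM per kb in LC-AI-ctrl cells, with overlap in both lines. Within class IIa of RERF-LC-AI cells, HDAC9 made up 9.22 to 11.6% of the sum in LC-AI-maspin libraries, against 7.64 to 8.01% in LC-AI-ctrl libraries, and HDAC7 72.0 to 74.5% in LC-AI-maspin libraries, against 75.7 to 77.1% in LC-AI-ctrl libraries. The most abundant member of each class weighed most in these sums. In RERF-LC-AI cells HDAC1 averaged 65.7 CPM per kb with maspin and 72.8 in ctrl cells, and HDAC7 21.0 and 23.0. Within class IIa, HDAC5 and HDAC9 were on average higher with maspin, so that the lower sum is not a trait of the whole class. These sums and shares were not tested, and no share of sums without overlap was computed for other genes.

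**Figure D3:**
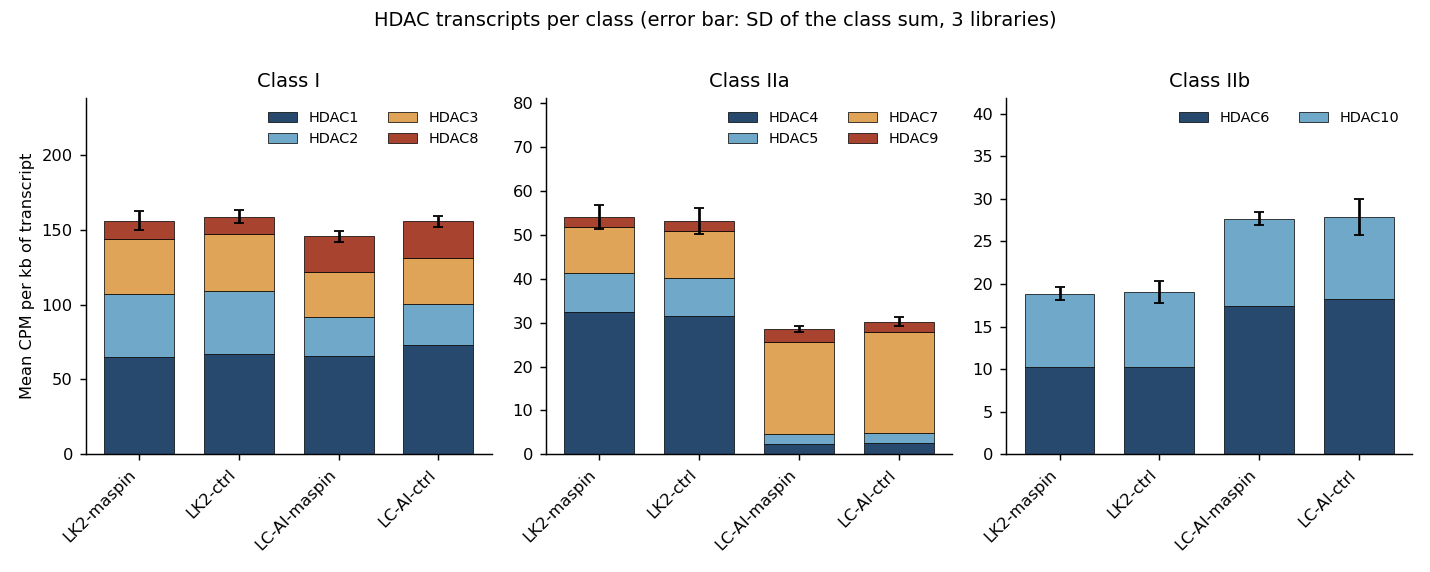
Mean CPM per kb of MANE Select transcript (y axis, linear from 0) of each HDAC gene, stacked by class, in the 4 groups (x axis). Error bars are the SD of the class sum over 3 libraries. HDAC4 makes up 60.1% of class IIa in LK2-maspin and 59.5% in LK2-ctrl cells, while HDAC7 makes up 73.5% in LC-AI-maspin and 76.2% in LC-AI-ctrl cells.

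Next, the maspin effects of the 2 lines were compared with each other by an interaction contrast over the 12 libraries. None of the 10 HDAC genes passed (0 of 10, beside 1.76% of 28123 genes), by DESeq2 also 0. HDAC4 had an unadjusted p of 0.0317 (adjusted p = 0.330 in edgeR's quasi-likelihood test), with a maspin effect that was higher in LK-2 than in RERF-LC-AI cells by 0.20 on the log2 scale (95% confidence interval 0.02 to 0.39). For HDAC1 the LK-2 effect minus the RERF-LC-AI effect was 0.11 (95% confidence interval −0.06 to 0.28, adjusted p = 0.664), and for HDAC9 it was −0.26 (95% confidence interval −0.58 to 0.07, adjusted p = 0.551). The calls of HDAC1 and HDAC9 in RERF-LC-AI cells are therefore not shown to be particular to that line. Maspin level differed as well, with SERPINB5 at 48.4 to 50.9 CPM in LK2-maspin and 438 to 513 CPM in LC-AI-maspin libraries. The study detected nuclear and cytoplasmic maspin in LK2-maspin cells, but no nuclear maspin in LC-AI-maspin cells, where HDAC1 was called. Line, maspin level and maspin location cannot be told apart in this contrast, and their parts were not tested.

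For most HDAC genes the lines themselves differed more in mRNA than maspin and ctrl cells did. The exceptions were HDAC9, at −0.24 on the log2 scale between lines and 0.32 with maspin in RERF-LC-AI cells, and HDAC3, at 0.06 and −0.06. In LK2-ctrl against LC-AI-ctrl cells, 8 of 10 HDAC genes were DEGs, 3 higher and 5 lower in LK2-ctrl cells, beside 61.9% of all genes (31.4% higher and 30.5% lower). Cell line, medium and count table cannot be told apart in this comparison. The median log2 fold change over all genes was 0.12, and it was 0.34 with upper-quartile factors or with library size only, so that differences are also given relative to the median. CPM values are scaled within each line and the fold changes here come from factors over all 12 libraries, so that ratios of the CPM values below exceed the fitted log2 fold changes by 0.21 for every member. The split of all DEGs was 8824 higher and 8583 lower, and 11463 higher and 7056 lower with upper-quartile factors.

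HDAC4 showed the largest difference among the 10, with 268, 264 and 270 CPM in LK2-ctrl libraries, against 21.7, 23.3 and 19.9 CPM in LC-AI-ctrl libraries. The log2 fold change of HDAC4 was 3.42 (SE 0.07, adjusted p = 1.12e-19 in edgeR's quasi-likelihood test), that is 10.7-fold (12.4-fold as a ratio of the CPM means), and 3.29 to 3.30 above the median of all genes under 5 ways of scaling. HDAC5 had 35.9, 42.4 and 57.2 CPM in LK2-ctrl libraries, against 13.9, 11.5 and 11.2 CPM in LC-AI-ctrl libraries, a 3.20-fold difference (adjusted p = 7.10e-09 in edgeR's quasi-likelihood test). HDAC2 was 1.33-fold higher in LK2-ctrl cells (adjusted p = 1.21e-06 in edgeR's quasi-likelihood test).

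HDAC7, the class IIa enzyme best known from lymphocytes and endothelium, had 48.2, 41.9 and 46.6 CPM in LK2-ctrl libraries, against 99.8, 96.1 and 94.8 CPM in LC-AI-ctrl libraries. The log2 fold changes were −1.30 for HDAC7, −1.26 for HDAC8 and −1.04 for HDAC6 (adjusted p-values 4.06e-13, 6.48e-12 and 3.37e-10 in edgeR's quasi-likelihood test), and the groups did not overlap. HDAC8 averaged 20.5 ± 1.69 CPM in LK2-ctrl and 42.7 ± 1.70 CPM in LC-AI-ctrl cells, and HDAC6 42.1 ± 4.09 CPM in LK2-ctrl and 74.9 ± 4.82 CPM in LC-AI-ctrl cells (SD, n = 3 each). Smaller differences were found for HDAC1 (log2 fold change −0.33) and HDAC10 (−0.35). Relative to the median of all genes they were −0.45 for HDAC1 and −0.47 for HDAC10.

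HDAC3 (log2 fold change 0.06, adjusted p = 0.414) and HDAC9 (−0.24, adjusted p = 0.0707) did not pass the test between the lines. Relative to the median of all genes, HDAC3 lay at −0.06 to −0.05 and HDAC9 at −0.36 to −0.35 under 5 ways of scaling. HDAC9 passed in 4 of 21 alternatives, with DESeq2 (adjusted p = 0.0402), with RLE factors (0.0322), with the replicate number as a block (0.00175) and without LK2-ctrl replicate 3, the library in which it was highest among LK2-ctrl libraries (0.00137, log2 fold change −0.40). As scaled within each line, HDAC9 averaged 22.9 ± 4.17 CPM in LK2-ctrl and 23.2 ± 1.06 CPM in LC-AI-ctrl cells (SD, n = 3 each).

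**Figure D4:**
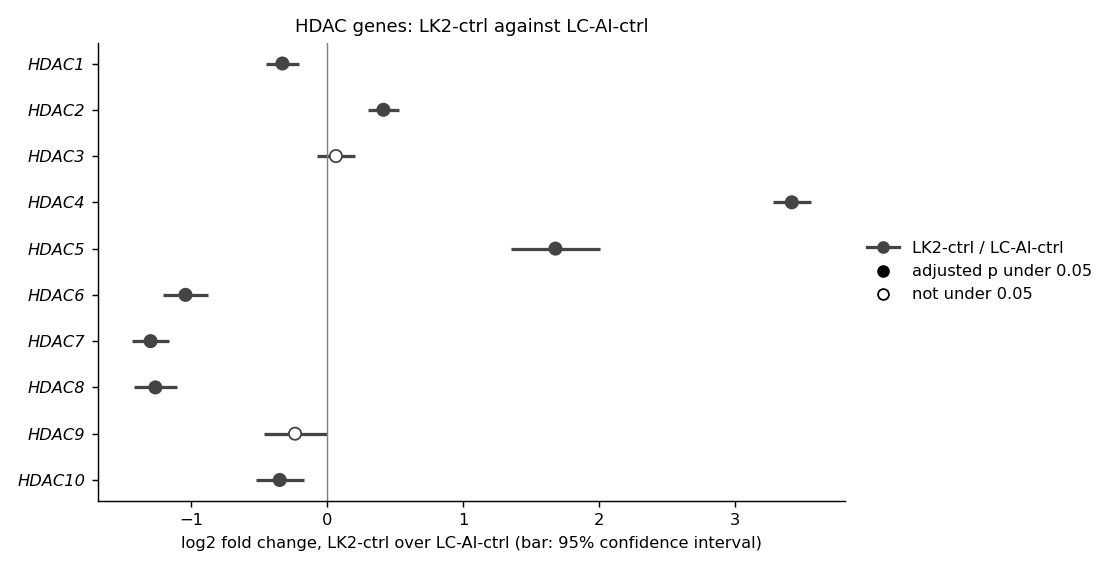
Log2 fold changes of the 10 HDAC genes, LK2-ctrl over LC-AI-ctrl (x axis), with 95% confidence intervals from the fit of 12 libraries and filled points for an adjusted p under 0.05. HDAC4 stands apart at 3.42 and HDAC5 follows at 1.68, while HDAC7 (−1.30), HDAC8 (−1.26) and HDAC6 (−1.04) lie on the other side of 0.

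The genes whose pattern was most like that of HDAC1 over the 12 libraries, after the mean of each line was subtracted, were CDKN2AIPNL (Pearson r = 0.953), RPL12 (r = 0.940) and RBBP4 (r = 0.934), out of 15490 genes compared. The r values are a description without a test. RBBP4, the histone-binding subunit that SIN3 and NuRD share with HDAC1, had 169, 177 and 172 CPM in LC-AI-maspin libraries, against 187, 193 and 189 CPM in LC-AI-ctrl libraries. The log2 fold changes in RERF-LC-AI cells were −0.14 for RBBP4, −0.17 for RPL12, a ribosomal protein gene, and −0.14 for CDKN2AIPNL. These genes were chosen for a pattern like that of HDAC1 in the same libraries, which fixes their direction, and no test is given for them.

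Genes that act with or against the HDACs were examined as 10 lists of 116 distinct genes. In LK2-maspin against LK2-ctrl cells 0 of 116 were DEGs, beside 0.533% of all genes, with the lowest adjusted p at 0.206 and 11 genes under an unadjusted p of 0.05. Their median log2 fold change was 0.003, beside −0.001 over all genes. With the replicate number as a block, 10 were higher and 5 lower (12.9%, beside 4.53% of all genes). In LC-AI-maspin against LC-AI-ctrl cells 23 of the 115 tested were DEGs, 13 higher and 10 lower (20%, beside 10.5% of all genes), with a median log2 fold change of −0.02, beside 0.01 over all genes. By list, the share was 12.5% for the acetyltransferases, SIN3 and CoREST, 15.4% for NuRD and 16.7% for NCoR and SMRT, not far from 10.5%. It was 25% for the other deacetylases and for MEF2 factors and kinases, 28.6% for inhibitor-raised genes, 28% for p53 targets and 0% for MiDAC. In lists of 3 to 25 tested genes, 1 or 2 DEGs say little about a family. The values below are from edgeR's quasi-likelihood test in RERF-LC-AI cells, where the DEGs named are the up to 3 with the smallest adjusted p of each list.

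Of the other deacetylases, 2 of 8 rose with maspin and 0 fell. HDAC11, the lone class IV enzyme, had 43.2, 43.0 and 43.0 CPM in LC-AI-maspin libraries, against 35.1, 30.9 and 34.4 CPM in LC-AI-ctrl libraries. The log2 fold change of HDAC11 was 0.36 (adjusted p = 5.36e-05), larger in size than that of any of HDAC1 to HDAC10, and the call held in 16 of 16 alternatives. SIRT3, the main mitochondrial deacetylase, rose by 0.25 on the log2 scale (adjusted p = 0.0127, but 0.0754 without LC-AI-ctrl replicate 2 and 0.109 without LC-AI-maspin replicate 3).

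Of the lysine acetyltransferases, 2 of 16 rose and 0 fell (12.5%, beside 10.5% of all genes). ATAT1, which acetylates the tubulin lysine that HDAC6 deacetylates, had 11.3, 9.38 and 12.1 CPM in LC-AI-maspin libraries, against 8.29, 7.26 and 9.004 CPM in LC-AI-ctrl libraries (log2 fold change 0.42, adjusted p = 0.00785, and 0.097 without LC-AI-maspin replicate 3). KAT6B, a MYST-family enzyme, rose by 0.17 on the log2 scale (adjusted p = 0.0451). This call was lost without any of LC-AI-ctrl replicate 1 or 3 and LC-AI-maspin replicate 1, 2 or 3 (adjusted p from 0.0731 to 0.194).

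Of the complexes built on HDAC1 and HDAC2, the SIN3 complex had 0 of 16 members higher and 2 lower. These were BRMS1, known as a metastasis suppressor (log2 fold change −0.20, adjusted p = 0.0131, and 0.0997 without LC-AI-ctrl replicate 2 and 0.0954 without LC-AI-maspin replicate 3), and SAP30L (−0.20, adjusted p = 0.0289). The call of SAP30L was lost without LC-AI-ctrl replicate 3 (0.269) and LC-AI-maspin replicates 1 (0.195) and 2 (0.0827). The NuRD complex had 1 of 13 higher, the remodeller CHD5 (0.85, adjusted p = 0.002), at 2.28, 3.003 and 2.78 CPM in LC-AI-maspin libraries, against 1.82, 1.39 and 1.28 CPM in LC-AI-ctrl libraries. It had 1 of 13 lower, the core subunit MTA2 (−0.17, adjusted p = 0.0219), a call lost without LC-AI-ctrl replicates 2 (0.141) and 3 (0.104) and LC-AI-maspin replicates 1 (0.0807) and 3 (0.11). In the CoREST complex 1 of 8 rose, the histone reader PHF21A (0.27, adjusted p = 0.00539, and 0.26 with all 12 libraries in 1 fit). In the MiDAC complex 0 of 3 tested were DEGs.

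The NCoR and SMRT complex, which holds HDAC3, had 0 of 6 members higher and 1 lower. This was CORO2A, with 8.52, 6.85 and 7.71 CPM in LC-AI-maspin libraries, against 10.5, 10.6 and 11.4 CPM in LC-AI-ctrl libraries (log2 fold change −0.49, adjusted p = 0.000869, held in 16 of 16 alternatives). Of MEF2 factors and kinases of class IIa HDACs, 2 of 16 rose and 2 fell. CAMK1, a calcium-dependent kinase of the class IIa enzymes, had 74.6, 78.3 and 72.8 CPM in LC-AI-maspin libraries, against 62.2, 59.0 and 57.2 CPM in LC-AI-ctrl libraries (log2 fold change 0.34, adjusted p = 2.54e-05). MEF2D, the transcription factor, rose by 0.17 on the log2 scale (adjusted p = 0.0253, and 0.0845, 0.189 and 0.199 without LC-AI-ctrl replicate 2, LC-AI-ctrl replicate 3 and LC-AI-maspin replicate 3). SIK3, a salt-inducible kinase that phosphorylates class IIa HDACs, fell by 0.28 on the log2 scale (adjusted p = 0.00211, and 0.0523 without LC-AI-maspin replicate 3).

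Genes known to rise with HDAC inhibitors had a median log2 fold change of 0.29 with maspin in LK-2 cells, where 0 of 7 passed the test. That count depends on the model: with the replicate number as a block, 5 of the 7 were DEGs in LK-2 cells, beside 4.53% of all genes. CDKN1A (adjusted p = 8.96e-09), GSN (5.13e-06), TXNIP (0.000276) and CLU (0.0203) were higher and CDH1 (0.0229) was lower in that fit. The sources used here do not say whether equal numbers mark paired cultures. Other lists also gained DEGs with the block in LK-2 cells. These were 2 of 6 for NCoR and SMRT, all higher, and 2 higher and 1 lower of 16 for MEF2 factors and kinases. There were 2 higher and 1 lower of 25 p53 targets, and CDKN1A, which is on both lists, is again among the 2 higher. SIN3 had 1 higher and 1 lower of 16, and CoREST had 1 lower of 8. Without the block, the median of the 7 inhibitor-raised genes was −0.16 in RERF-LC-AI cells, where 2 of 7 fell. With the block, 0 of 7 were higher and 3 lower in that line, beside 16.2% of all genes. The RERF-LC-AI values that follow are without the block. TXNIP, the thioredoxin-interacting protein, had 61.4, 43.1 and 40.8 CPM in LC-AI-maspin libraries, against 67.5, 68.2 and 69.7 CPM in LC-AI-ctrl libraries (−0.50, adjusted p = 0.000142). GSN, the actin-severing protein gelsolin, had 35.1, 32.2 and 32.4 CPM in LC-AI-maspin libraries, against 47.7, 38.1 and 39.3 CPM in LC-AI-ctrl libraries (−0.33, adjusted p = 0.00135). With all 12 libraries in 1 fit both calls were lost, at an adjusted p of 0.143 for TXNIP and 0.0616 for GSN. CDKN1A, the cell cycle inhibitor that is the best known gene of this list and was named after its values were seen, did not pass in either line without the block, at 0.72 on the log2 scale in LK-2 cells (adjusted p = 0.827, SE 0.35, and SE 0.094 with the block) and 0.10 for CDKN1A in RERF-LC-AI (adjusted p = 0.667, SE 0.11). In LK-2 libraries CDKN1A had 7.47, 15.8 and 19.7 CPM in LK2-maspin replicates 1, 2 and 3, against 4.81, 8.42 and 12.9 CPM in LK2-ctrl replicates 1, 2 and 3, higher with maspin at each number although the groups overlapped.

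**Figure D5:**
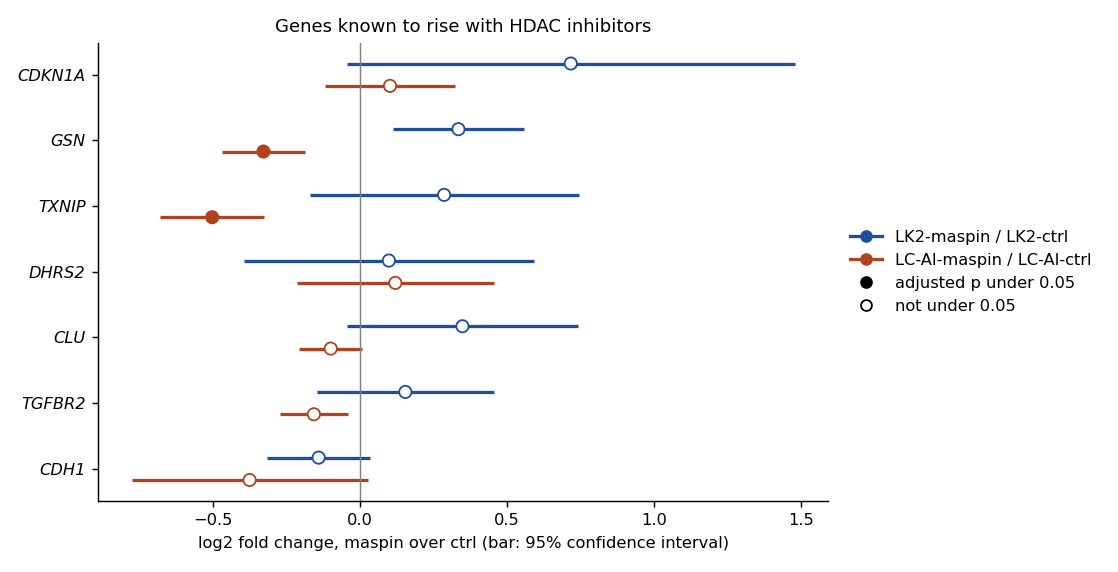
Log2 fold changes, maspin over ctrl (x axis), of 7 genes known to rise with HDAC inhibitors, in both lines, with 95% confidence intervals and filled points for an adjusted p under 0.05. The filled points are GSN (−0.33) and TXNIP (−0.50) in RERF-LC-AI cells, both below 0, and no LK-2 point is filled in this fit without the replicate block.

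Of p53 target genes, whose factor is itself a substrate of HDAC1, 5 of 25 rose and 2 fell in RERF-LC-AI cells. SESN2, a stress-induced regulator of mTORC1, had 84.4, 101 and 81.8 CPM in LC-AI-maspin libraries, against 64.5, 59.9 and 53.02 CPM in LC-AI-ctrl libraries (log2 fold change 0.59, adjusted p = 3.31e-07). BBC3, the proapoptotic protein PUMA, rose by 0.52 on the log2 scale (adjusted p = 0.00169, and 0.1 with all 12 libraries in 1 fit). CCNG1, cyclin G, fell by 0.24 (adjusted p = 0.0019). The list's median log2 fold change was −0.04 in RERF-LC-AI and 0.02 in LK-2 cells.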

How the data were processed

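Before deposit the authors trimmed reads with Trimmomatic 0.39, used BWA 0.7.17 with the GRCh38.p13 genome and ran SAMtools 1.12 (LK-2) or 1.10 (RERF-LC-AI), per the labels. Each line has its own deposited table with counts of mapped reads per gene, not normalised by the authors. The tool that assigned reads to genes was not given in the sources used here. Not used were the deposited signal columns, counts that the authors had rescaled with edgeR 3.16.5 by TMM or to the library total. Only 23.7 to 26.0% of counts from 1 to 9 were odd, so that many genes hold both reads of each pair. Lines without a symbol (646, with 0.292 to 0.416% of counts) were dropped.

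The quasi-likelihood test of edgeR 4.0.16 (R 4.3.3) was applied to the counts. Genes passed edgeR's default expression filter (minimum count 10, minimum total 15), TMM factors set the scale, and p-values were adjusted by Benjamini-Hochberg over all genes tested, with a threshold of 0.05. The maspin effect was fitted in each line separately, and contrasts across lines came from a fit of all 12 libraries. The SE is the size of the log2 fold change divided by the square root of F. Replicate libraries differed by more than counting noise (chi-square over its degrees of freedom, 4.44 to 23.9). The test was tried on simulated data first. Alternatives changed the test (likelihood ratio, as in the study, or DESeq2 1.42.0), the scale (RLE, upper quartile, or none beyond library size), the filter (none, or 10 counts in all libraries), the model (a replicate block, or all libraries fitted together), the counts (halved to fragments) and the threshold (0.01), or left out 1 library. The members, the gene lists and these tests were chosen with earlier results of these data known. Named genes are the 10 members, SERPINB5, up to 3 DEGs with the smallest adjusted p of each list in each maspin comparison, and the 3 genes most correlated with HDAC1 among those with a mean of at least 1 CPM in both lines. CDKN1A, CLU, CDH1, CAMK2D, GADD45A and single marker genes fall outside this rule and were named after their values were seen. A gene of the list of genes known to rise with HDAC inhibitors is not reported here. This shortened the lists with results known, so that their counts and medians describe only the genes kept.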

Additional observations from a re-analysis of the deposited data

Results flagged for a closer look

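Of the 116 genes of the lists, 4 had a maspin effect that differed between the 2 lines in edgeR's interaction test, 3 higher and 1 lower in LK-2, beside 1.76% of all genes tested, and none of these is among HDAC1 to HDAC10. Values are the LK-2 effect minus the RERF-LC-AI effect on the log2 scale. For GSN, known to rise with HDAC inhibitors, the difference was 0.6639 (SE 0.14, adjusted p = 0.0131). Every LK2-maspin library lay above every LK2-ctrl library, but narrowly (lowest 37.26 CPM with maspin, highest 37.10 CPM in ctrl). Every LC-AI-maspin library lay below every LC-AI-ctrl library (highest 35.1 CPM with maspin, lowest 38.1 CPM in ctrl). Of all genes, 11.9% were without overlap in the LK-2 comparison, in either direction, and 25.1% in the RERF-LC-AI comparison. GSN was picked by its interaction in these same libraries, so the separation is no further evidence. For SAP30L, a SIN3 subunit, the difference was 0.4152 (adjusted p = 0.0407). SAP30L lost the call without LK2-ctrl replicate 2 (0.114), LK2-maspin replicate 2 (0.103), LC-AI-ctrl replicate 3 (0.156), LC-AI-maspin replicate 1 (0.0866) and LC-AI-maspin replicate 3 (0.0553). For CAMK2D, a calcium-dependent kinase, it was 0.5003 (adjusted p = 0.0162, and 0.0623, 0.0604 and 0.0523 without LK2-ctrl replicate 2, LC-AI-ctrl replicate 3 and LC-AI-maspin replicate 3). For GADD45A, a p53 target that responds to DNA damage, it was −0.6149 (adjusted p = 0.00993), with 118, 95.9 and 97.9 CPM in LK2-maspin libraries, against 128, 132 and 126 CPM in LK2-ctrl libraries, and 44.3, 37.6 and 37.8 CPM in LC-AI-maspin libraries, against 35.7, 30.9 and 30.2 CPM in LC-AI-ctrl libraries. CAMK2D and GADD45A were named after their values were seen. Within RERF-LC-AI cells GADD45A rose (log2 fold change 0.30, adjusted p = 0.003), and within LK-2 cells none of the 4 passed the test without the replicate block.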

How the results depend on the processing

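The count of HDAC DEGs in LC-AI-maspin against LC-AI-ctrl cells was 2, and it was 1 with upper-quartile factors, 1 with library size only, 1 with no filter, 1 at an adjusted p under 0.01 and 0 with all 12 libraries in 1 fit. Leaving out a library gave 0 to 2, with 0 without LC-AI-ctrl replicate 3 or without LC-AI-maspin replicate 1. DESeq2, at least 10 counts in every library and the replicate block each gave 3, with HDAC7 added. In LK-2 cells and for the difference between lines the count stayed at 0 in every alternative, and between the ctrl groups it was 7 to 9, against 8. HDAC1 and HDAC10 lost and HDAC3 gained the call between the ctrl groups with upper-quartile factors, while their distance from the median of all genes hardly moved (−0.45 for HDAC1, −0.47 for HDAC10 and −0.06 to −0.05 for HDAC3 under 5 ways of scaling). The directions that turned belong to members without a call in that comparison. The ranges that follow are over all alternatives, left-out libraries among them. In LK2-maspin against LK2-ctrl, log2 fold changes ran from −0.0727 to 7e-04 for HDAC1, −0.0277 to 0.0088 for HDAC2 and −0.0589 to 0.01 for HDAC3. They ran from −0.14 to 0.2554 for HDAC5, −0.0736 to 0.0775 for HDAC6 and −0.0063 to 0.107 for HDAC8. For HDAC9 the range was −0.0323 to 0.2189 and for HDAC10 −0.0813 to 0.0189, and HDAC6 was at 0.0029 with library size only. In LC-AI-maspin against LC-AI-ctrl HDAC5 ran from −0.0073 to 0.155. For the difference between lines HDAC3 ran from −0.0168 to 0.117 and HDAC5 from −0.1657 to 0.2271, and HDAC5 was −0.0302 with upper-quartile factors, −0.029 with library size only and −0.0048 with the replicate block. Among all genes, DEGs in RERF-LC-AI cells were 1010 higher and 1645 lower, and with library size only 1408 were higher and 1287 lower. The cause of these changes was not tested. The labels number libraries alike in maspin and ctrl groups. Over all genes tested, the deviations of same-numbered libraries from their group means correlated weakly (r of 0.154, 0.0144 and 0.164 for LK-2, 0.0437, 0.0533 and 0.00167 for RERF-LC-AI), and the numbers were not taken to pair the libraries. Yet 6 of 6 LK-2 and 4 of 6 RERF-LC-AI libraries correlated best with their own number. Over genes above a mean log2 CPM of 3 the values were 0.744, 0.113 and 0.750 for LK-2 and 0.369, 0.3897 and 0.203 for RERF-LC-AI, and 5 of 6 and 6 of 6 did so, a hint of pairing from the data that the labels do not state. With the replicate block, DEGs numbered 1190 in LK-2 (140 without it) and 4081 in RERF-LC-AI cells (2655 without it), of which 0 and 3 were HDAC genes, and HDAC7 passed in RERF-LC-AI cells (adjusted p = 0.0102). Of the listed genes, DEGs with the block numbered 10 higher and 5 lower of 116 in LK-2 cells (0 without it). This was 12.9%, beside 4.53% of all genes. In RERF-LC-AI cells they numbered 16 higher and 22 lower of 115 (13 and 10 without the block). This was 33%, beside 16.2% of all genes. Depth was 557 counts or more for every HDAC gene in every library. How far counting noise or other spread between libraries limits the comparison of each member was not tested.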
